A study of Homo sapiens with 18 samples.

Results

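The 10 genes described here encode parts of the Notch pathway: the ligands JAG1, JAG2 and DLL1, the receptors NOTCH1, NOTCH2, NOTCH3 and NOTCH4, the DNA-binding factor RBPJ, the coactivator MAML1 and the target HES1. They were taken by name from the 20037 protein-coding genes of the RefSeq table (GRCh38.p14), and a peak was assigned to a gene if it overlapped the gene or the 10 kb on either side of it (the body and flanks). In Notch signalling, a ligand on 1 cell binds a receptor on its neighbour, and proteases then free the intracellular part of the receptor. That part enters the nucleus, where it joins RBPJ and a Mastermind coactivator such as MAML1 and turns on targets such as HES1. Without it, RBPJ recruits corepressors to the same genes. JAG1 has been described as a gene raised by the AML1-ETO fusion protein in myeloid cells.

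Binding of AML1-ETO was profiled by CUT&RUN, in which a nuclease held by an antibody cuts out the DNA around the bound protein, and these fragments are sequenced. The cells were Kasumi-1, a human acute myeloid leukaemia line with the t(8;21) translocation that makes AML1-ETO, and all groups carried a Flag-tagged AML1-ETO. Cells were transduced as control or for knockdown of the microRNA miR-130a, sorted as viable GFP+ cells after 3 days and profiled with anti-ETO, anti-Flag or mouse IgG, in 3 libraries per group and 18 libraries in all. The comparison asks whether AML1-ETO occupies different sites after miR-130a knockdown. The labels do not give the knockdown vector, the control vector or whether the tagged line is a single clone.

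The deposited files hold positions of peaks, with 1 list for each of anti-ETO and anti-Flag in control and in knockdown. These 4 lists held 14264 (control anti-ETO), 22594 (knockdown anti-ETO), 23162 (control anti-Flag) and 25961 (knockdown anti-Flag) peaks. The authors also deposited lists of peaks found with both antibodies, split into 8731 shared, 3059 control-unique and 4617 knockdown-unique peaks. A peak has no height, score or value per library, so the read depth behind it is unknown, and how the 3 libraries of a group varied could not be computed. No difference below was therefore tested against replicate error. Counts at the 10 genes are set beside the same count over all protein-coding genes. None of the peak lists was for IgG. Peak lists hold no expression values, so the labelled cell line was not checked against marker genes.

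Promoter sequences of 9 of the 10 genes were matched in RefSeq (GRCh38.p14), as windows from 250 bases before to 50 bases after an annotated start, and RBPJ had 5 such windows. DLL1 was not matched. The first set shows windows that peaks of all 4 lists overlapped, including 2 of the 3 such RBPJ windows. They are printed 5′ to 3′ on the gene's strand, and an overlap with a window need not cover the start itself. Capitals mark exact matches, on either strand, of the RUNX motif (TGTGGT or TGCGGT), the RBPJ motif (TGGGAA), an ETS motif (GGAAGT) and an E-box (CAGCTG).
JAG1, chr20:10673950-10674249, minus strand: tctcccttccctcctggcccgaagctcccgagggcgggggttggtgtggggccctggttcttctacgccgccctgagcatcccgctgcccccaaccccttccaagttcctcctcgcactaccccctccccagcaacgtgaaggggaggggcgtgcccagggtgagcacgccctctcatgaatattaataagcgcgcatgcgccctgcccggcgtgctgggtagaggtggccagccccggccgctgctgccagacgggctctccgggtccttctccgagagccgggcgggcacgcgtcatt
HES1, chr3:194135898-194136197, plus strand: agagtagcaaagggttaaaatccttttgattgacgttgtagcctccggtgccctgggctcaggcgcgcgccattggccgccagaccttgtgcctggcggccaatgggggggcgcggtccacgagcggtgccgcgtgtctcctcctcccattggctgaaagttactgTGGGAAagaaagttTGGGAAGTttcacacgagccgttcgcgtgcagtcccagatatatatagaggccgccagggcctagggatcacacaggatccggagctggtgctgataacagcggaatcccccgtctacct
NOTCH2, chr1:120069613-120069912, minus strand: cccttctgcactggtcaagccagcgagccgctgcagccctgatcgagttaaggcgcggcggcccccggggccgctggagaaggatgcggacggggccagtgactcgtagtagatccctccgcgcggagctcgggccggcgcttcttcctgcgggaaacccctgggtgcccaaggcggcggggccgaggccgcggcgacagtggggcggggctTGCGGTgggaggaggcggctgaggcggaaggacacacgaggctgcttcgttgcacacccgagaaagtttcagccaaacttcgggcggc
RBPJ, chr4:26319496-26319795, plus strand: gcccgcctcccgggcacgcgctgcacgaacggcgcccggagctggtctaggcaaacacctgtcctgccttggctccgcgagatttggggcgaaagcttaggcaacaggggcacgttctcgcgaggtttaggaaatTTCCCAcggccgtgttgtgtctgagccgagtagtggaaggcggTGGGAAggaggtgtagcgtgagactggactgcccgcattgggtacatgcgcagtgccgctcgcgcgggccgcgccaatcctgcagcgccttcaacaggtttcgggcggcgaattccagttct
RBPJ, chr4:26320764-26321063, plus strand: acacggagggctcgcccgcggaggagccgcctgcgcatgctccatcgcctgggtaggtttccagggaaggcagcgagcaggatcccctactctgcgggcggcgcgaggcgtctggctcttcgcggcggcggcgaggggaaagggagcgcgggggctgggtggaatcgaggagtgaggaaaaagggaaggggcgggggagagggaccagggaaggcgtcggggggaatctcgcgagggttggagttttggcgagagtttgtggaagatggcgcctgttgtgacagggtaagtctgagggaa
Positions of motifs count from 0 at the start site, with negative values upstream. At JAG1 and HES1 each list covered all 300 bases. At NOTCH2 the first 3 lists did, and knockdown anti-Flag covered 118, which did not include the start (120069662). In the first RBPJ window the covered bases numbered 300 (control anti-ETO), 82 (knockdown anti-ETO), 92 (control anti-Flag) and 8 (knockdown anti-Flag). Only control anti-ETO covered the start of this window (26319746). In the second RBPJ window, each list covered all 300 bases. The RBPJ window not printed (26320978 to 26321277) had 245, 245, 237 and 224 covered bases in the same order. Its start (26321228) was covered in no list. The JAG1 window and these last 2 RBPJ windows held none of the motifs. The HES1 window held the RBPJ motif at -84 and -70, and the second overlapped the ETS motif at -68. The NOTCH2 window held TGCGGT at -38, and the first RBPJ window held the RBPJ motif at -115 (on the other strand) and -72. Over the 13 windows of the 9 genes, the RUNX motif was in 2, the RBPJ motif in 2, the ETS motif in 3 and the E-box in 1. Of all 35116 promoter windows in the table, 19.6% held the RUNX motif, 24.0% the RBPJ motif, 22.8% the ETS motif and 17.9% the E-box. A match describes the letters in this window and not a bound site.

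All 10 genes had at least 1 peak in each of the 4 single-antibody lists, and all 10 had a peak shared between conditions. Among all protein-coding genes, a peak in body or flank was found for 47.4% in control anti-ETO, 53.6% in knockdown anti-ETO, 50% (10021 genes) in control anti-Flag and 42.1% in knockdown anti-Flag. A peak in all 4 lists was found for 37.2% of protein-coding genes, and a shared peak for 35.0%. The 10 genes had a median length of 39137 bp, against 24115 bp for all protein-coding genes, and the part of length in these shares was not tested. Without the flanks, 7 of the 10 genes kept a control anti-ETO peak, 9 a knockdown anti-ETO peak, 8 a control anti-Flag peak and 9 a knockdown anti-Flag peak. The shares of all protein-coding genes given above include the flanks, so they cannot be set against these counts.

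The 10 genes held 25 control anti-ETO, 43 knockdown anti-ETO, 47 control anti-Flag and 63 knockdown anti-Flag peaks. For anti-ETO the number was higher in knockdown at 8 genes and equal at DLL1 and HES1. Among the genes with peaks in all 4 lists, 59.5% had more anti-ETO peaks in knockdown and 6.99% had fewer. For anti-Flag the number was higher in knockdown at 7 genes, equal at DLL1 and RBPJ and lower at HES1, against 41.0% with more and 29.5% with fewer of the genes with peaks in all 4 lists. The ratio of knockdown to control peaks at the 10 genes was 1.72 for anti-ETO and 1.34 for anti-Flag, and over the whole lists it was 1.58 and 1.12. In covered length, the 10 genes went from 22.1 kb in control to 36.0 kb in knockdown for anti-ETO (ratio 1.63, whole lists 1.67). For anti-Flag they went from 33.3 to 32.9 kb (ratio 0.986, whole lists 0.975). The peak numbers thus rose by a somewhat larger ratio than in the whole lists, a difference that was not tested, while covered length changed in close to the same ratio. With each list held to its 14264 widest peaks, the 10 genes held 25 control and 32 knockdown anti-ETO peaks, and 36 control and 39 knockdown anti-Flag peaks.

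**Figure D1:**
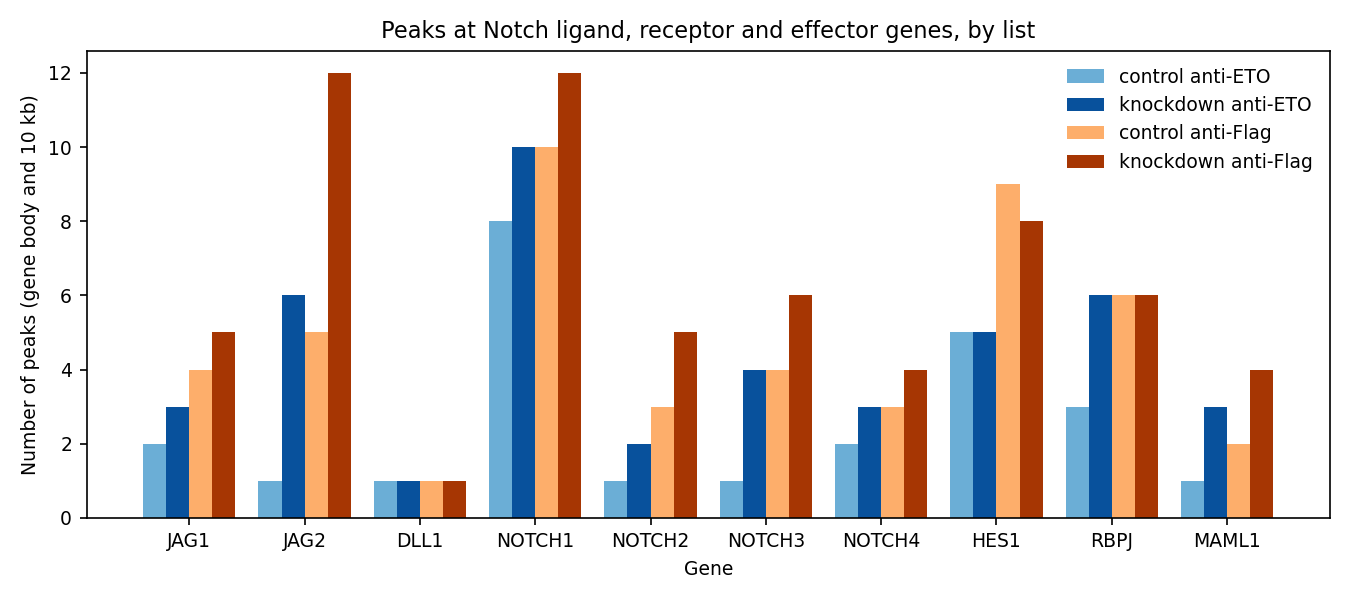
Number of peaks (vertical axis) overlapping the body or 10 kb flanks of each of the 10 genes (horizontal axis), with 1 bar per list and no error bars because each group has 1 list that names no library. NOTCH1 and HES1 had the most control anti-ETO peaks (8 and 5), and at JAG2 the bars rose from 1 to 6 for anti-ETO and from 5 to 12 for anti-Flag.

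Among the ligands, JAG1 and JAG2 bind Notch receptors as Jagged-type ligands and DLL1 as a Delta-type ligand. At JAG1 (chromosome 20, 10637684 to 10673999, minus strand), the lists held 2 control anti-ETO, 3 knockdown anti-ETO, 4 control anti-Flag and 5 knockdown anti-Flag peaks. Its main occupied stretch was a pair of shared peaks around the start of the gene. The first (10673296 to 10675139, 1844 bp) spanned the whole 300-base promoter window shown above. The second (10671332 to 10673108, 1777 bp) lay just inside the gene, centred 1779 bp from the start.

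The control anti-ETO peak over the JAG1 start was 1684 bp wide, the control anti-Flag peak 1844 bp and the knockdown anti-ETO peak 1731 bp. In the knockdown anti-Flag list the same stretch held 3 peaks of 174, 408 and 599 bp. At the second region the knockdown anti-Flag peak was 480 bp wide, against 1361 bp for control anti-ETO, 1727 bp for knockdown anti-ETO and 1520 bp for control anti-Flag. Occupancy at the JAG1 start was therefore called in every list, over a narrower length by anti-Flag in knockdown. Knockdown anti-Flag peaks were also the narrowest over the whole lists, with a median of 364 bp. The other medians were 416 bp (control anti-Flag), 461 bp (control anti-ETO) and 453 bp (knockdown anti-ETO). If peaks had to overlap by 50% of both widths, both JAG1 regions counted as bound by both antibodies in control only. The 4 other JAG1 regions were each in 1 list: control anti-Flag at 10651340 to 10651618 and at 10676549 to 10676874, knockdown anti-ETO at 10662948 to 10663211 and knockdown anti-Flag at 10663375 to 10663806.

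Of all other protein-coding genes, 12 had the same number of peaks as JAG1 in each of the 4 lists. The 3 closest to JAG1 in length were RILPL2, MSL2 and TRIM39-RPP21. Unlike JAG1, which had no knockdown-unique peak, each of these 3 had 1. This likeness covers 4 lists and says nothing of function.

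JAG2 (chromosome 14, 105140995 to 105168776, minus strand) differed most between conditions among the ligands. It had 1 control and 6 knockdown anti-ETO peaks, and 5 control and 12 knockdown anti-Flag peaks. Its only shared peak (105174264 to 105175262) lay 5488 bp outside the gene and inside NUDT14, a neighbouring gene. It held 4 of the 11 knockdown-unique peaks at the 10 genes, at 105162893 to 105163531, 105167867 to 105168251, 105169078 to 105169493 and 105169859 to 105170117. In control, the first 3 of these were called with anti-Flag but not with anti-ETO, and the last with neither antibody. These 4 peaks lay on both sides of the start, and the nearest control anti-ETO peak to any of them was 4364 bp away.

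DLL1 (chromosome 6, 170282206 to 170291078) had 1 region, called in all 4 lists (170271722 to 170272384). It lay 9822 bp from the gene, just inside the 10 kb reach, inside the long noncoding RNA gene LOC285804 and over the promoter window of LINC01624. The next region lay 15265 bp from DLL1, outside the reach. No peak of any of the 4 lists overlapped the body of DLL1. By the centre of the peak, DLL1 had no peak in any of the 4 lists.

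The receptors differed widely in how much was called. NOTCH1 is often mutated in T-cell leukaemia. At NOTCH1 (chromosome 9, 136494433 to 136546048, minus strand) the lists held 8 control anti-ETO, 10 knockdown anti-ETO, 10 control anti-Flag and 12 knockdown anti-Flag peaks. At least as many peaks were found for 0.614%, 1.62%, 2.24% and 3.13% of protein-coding genes in these lists. By the covered share of the window (body and flanks), 4.39%, 5.76%, 4.25% and 4.71% of genes reached at least the value of NOTCH1. Of its 13 regions, 7 were in all 4 lists. The widest, at 136528714 to 136531739 (3026 bp), was centred 15822 bp inside the gene and was the widest of all 69 regions at the 10 genes. It was followed towards the start by regions centred at 13544, 12023 and 6610 bp, all in all 4 lists. Whether they lie in exons or introns was not analysed here. A further pair of shared peaks lay beyond the end of NOTCH1, and the farther one (136484974 to 136485447) overlapped the promoter window of SEC16A.

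At the NOTCH1 start, control anti-ETO and control anti-Flag covered all 300 bases of the promoter window. Knockdown anti-ETO covered 123 of them, at both edges, and knockdown anti-Flag covered 0, with its nearest peak 438 bp away. In control, the peaks there ran from 136545808 to 136546534 (anti-ETO) and from 136545649 to 136546962 (anti-Flag). In knockdown, anti-ETO had a peak on each side of the gap, at 136544946 to 136546018 and 136546196 to 136546519. Knockdown anti-Flag had peaks at 136544793 to 136545561, inside the gene, and at 136547013 to 136547437, upstream. The authors list this stretch (136544793 to 136546962) as shared, and it also holds the microRNA gene MIR4674. Both conditions thus had calls near the NOTCH1 start, but only the control calls covered the start itself (136546048). If peaks had to overlap by 50% of both widths, this stretch was split. The region at 136545649 to 136546962 then had both antibodies in control only, and that at 136544793 to 136546018 in knockdown only. NOTCH1 also had 1 knockdown-unique peak upstream (136552248 to 136552633), a place called in control with anti-Flag but not with anti-ETO.

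The next sequences are promoter windows that the knockdown anti-ETO list covered only in part, with the covered bases in capitals, on the gene's strand.
NOTCH1, chr9:136545999-136546298, minus strand: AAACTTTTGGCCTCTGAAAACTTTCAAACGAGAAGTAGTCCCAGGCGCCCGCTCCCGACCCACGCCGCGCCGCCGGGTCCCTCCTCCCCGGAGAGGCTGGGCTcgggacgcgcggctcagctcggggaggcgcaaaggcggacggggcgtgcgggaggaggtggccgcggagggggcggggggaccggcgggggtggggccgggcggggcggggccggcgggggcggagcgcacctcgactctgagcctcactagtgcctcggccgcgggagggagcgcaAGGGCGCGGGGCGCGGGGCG
JAG2, chr14:105168727-105169026, minus strand: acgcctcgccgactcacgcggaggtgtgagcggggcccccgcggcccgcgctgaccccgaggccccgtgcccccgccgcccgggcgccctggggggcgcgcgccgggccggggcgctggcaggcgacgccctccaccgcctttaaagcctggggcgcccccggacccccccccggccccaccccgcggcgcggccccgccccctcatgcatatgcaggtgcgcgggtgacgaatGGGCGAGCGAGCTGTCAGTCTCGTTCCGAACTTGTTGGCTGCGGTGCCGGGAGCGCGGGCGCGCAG
In the NOTCH1 window the covered bases lie at its ends, and the uncovered stretch spans the start. In the JAG2 window the 66 covered bases lie around the start, and this peak (105168616 to 105168792) was in no other list. The control anti-Flag and knockdown anti-Flag peaks nearest to the JAG2 window were 59 and 56 bp away.

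**Figure D2:**
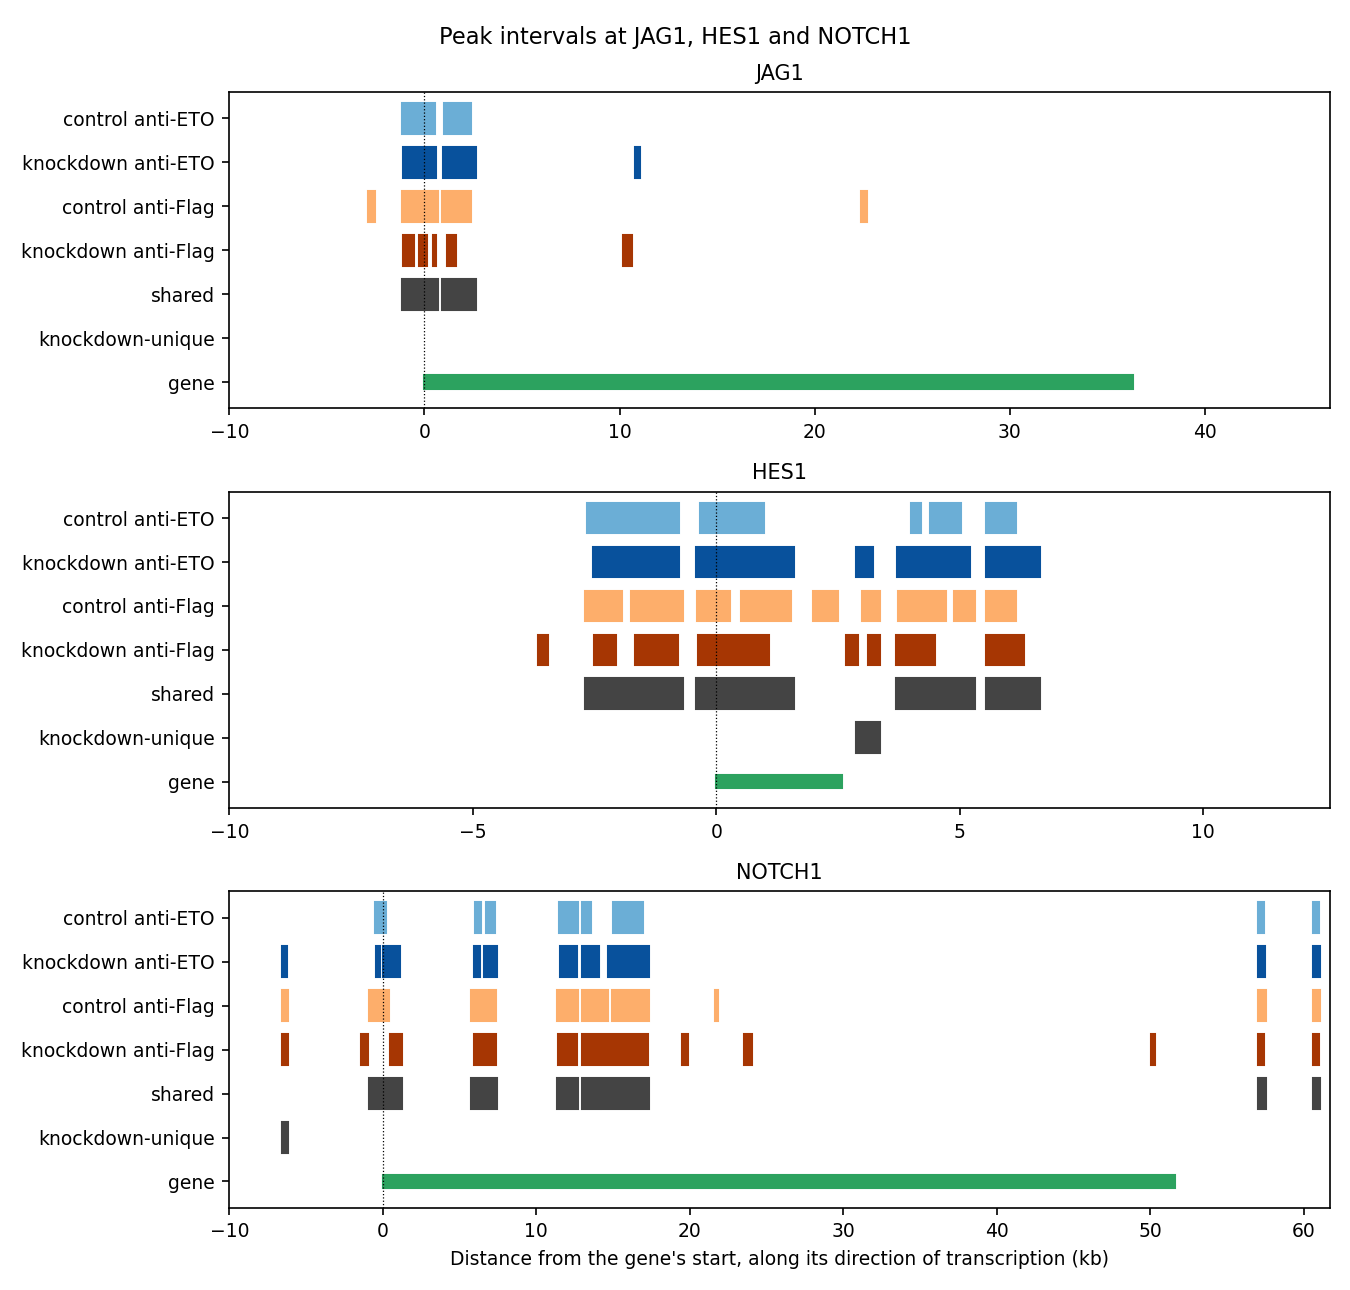
Peak intervals (boxes) of 6 lists and the gene body along the distance from the gene's start in kb (horizontal axis), with positive values in the direction of transcription, for JAG1, HES1 and NOTCH1. The boxes of all 4 single-antibody lists stack over the starts of JAG1 and HES1, while at the NOTCH1 start the knockdown anti-Flag row is empty.

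NOTCH2 (chromosome 1, 119911553 to 120069662, minus strand) had 1 control anti-ETO, 2 knockdown anti-ETO, 3 control anti-Flag and 5 knockdown anti-Flag peaks, all within a few kb of its start. The shared peak (120068187 to 120070761, 2575 bp) spanned the promoter window shown above and that of LOC101929178, so the call cannot be assigned to either gene. As at JAG1, 1 wide control anti-Flag peak (1800 bp) stood against 3 narrower ones in knockdown (280, 885 and 919 bp). The NOTCH2 start lay in the gap between the knockdown peaks of 885 and 919 bp, whereas at JAG1 the peak of 408 bp covered the start. A knockdown-unique peak (120067684 to 120067978) lay 957 bp from the nearest control anti-ETO peak and overlapped no control peak, but a control anti-Flag peak (120067344 to 120067681) ended just before it.

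NOTCH3 (chromosome 19, 15159038 to 15200995, minus strand) had 1 control anti-ETO, 4 knockdown anti-ETO, 4 control anti-Flag and 6 knockdown anti-Flag peaks. Its shared peak (15177192 to 15177898) lay deep in the gene, centred 23450 bp from the start, and no list had a peak over the promoter window. Of its knockdown-unique peaks, the one at 15197227 to 15198569 (1343 bp) was the widest of the 11 at the 10 genes and had a control anti-Flag call of 172 bp at its edge. The other, at 15180950 to 15181371, had no control call.

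NOTCH4 (chromosome 6, 32194843 to 32224067, minus strand) had 2 control anti-ETO, 3 knockdown anti-ETO, 3 control anti-Flag and 4 knockdown anti-Flag peaks, and none lay near its start. The peak of any list nearest to its promoter window, a knockdown anti-Flag peak, was 14955 bp away. Its shared peaks (32194788 to 32195706 and 32195983 to 32196580) lay at the far end of the gene, and the first overlapped the body and promoter window of GPSM3. Its knockdown-unique peak (32190292 to 32190542) overlapped the promoter window of PBX2. Of the 5 NOTCH4 regions, 4 overlapped the body or a promoter window of GPSM3 or PBX2, so those calls cannot be assigned to NOTCH4 alone.

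**Figure D3:**
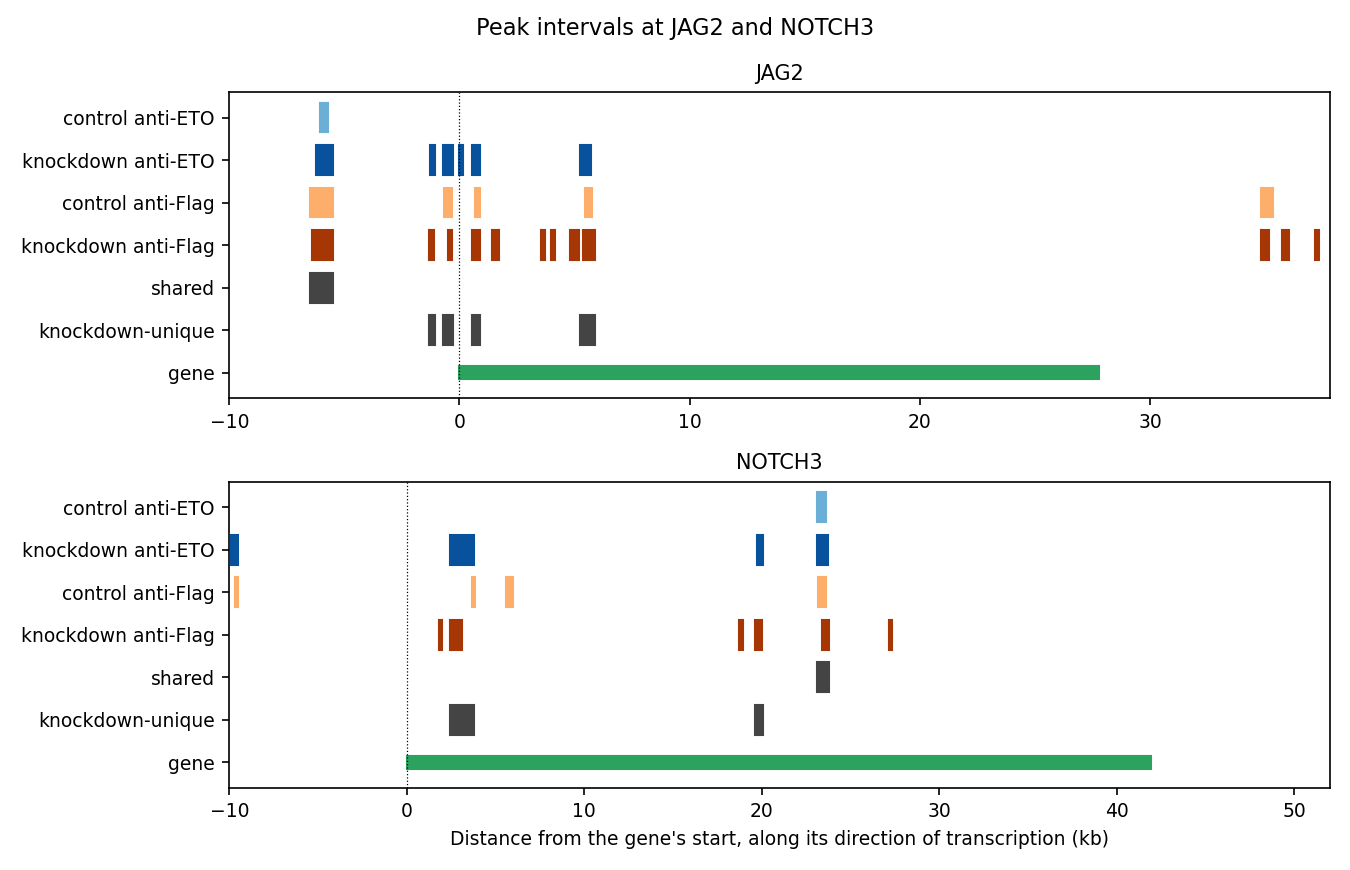
Peak intervals (boxes) of 6 lists and the gene body along the distance from the gene's start in kb (horizontal axis), with positive values in the direction of transcription, for JAG2 and NOTCH3. The control anti-ETO row holds 1 box in each panel, which for JAG2 lies outside the gene. The knockdown-unique row holds 4 boxes in the JAG2 panel, on both sides of the start, and 2 in the NOTCH3 panel.

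HES1, a repressor of the basic helix-loop-helix family and a direct Notch target, had the largest covered share of its window among the 10 genes in each of the 4 lists. At HES1 (chromosome 3, 194136148 to 194138732, plus strand) the lists held 5 control anti-ETO, 5 knockdown anti-ETO, 9 control anti-Flag and 8 knockdown anti-Flag peaks. Peaks covered 20.7% of its window (body and flanks) in control anti-ETO, 29.8% in knockdown anti-ETO, 28.5% in control anti-Flag and 22.6% in knockdown anti-Flag. Coverage at least as high was found for 0.459%, 0.714%, 0.729% and 2.21% of protein-coding genes in these lists. By number of peaks, 3.99%, 10.5%, 3.11% and 6.92% of genes had at least as many as HES1. HES1 had 4 shared peaks: 194133457 to 194135473 upstream, 194135739 to 194137743 over the start, and 194139845 to 194141472 and 194141686 to 194142796 beyond its end. All 4 lists covered the whole promoter window shown above. The knockdown-unique peak (194139027 to 194139509) lay between the end of the gene and these, where control anti-Flag had a call and the nearest control anti-ETO peak was 630 bp away.

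RBPJ (chromosome 4, 26105449 to 26435131, plus strand) is the factor through which Notch receptors reach DNA. It had 3 control anti-ETO, 6 knockdown anti-ETO, 6 control anti-Flag and 6 knockdown anti-Flag peaks, all inside the gene, and no unique peak of either condition. Of its 3 shared peaks, 1 (26318749 to 26321222, 2474 bp) covered bases of 3 of the 5 RBPJ start windows. The next (26321486 to 26323300) lay just downstream, and the remaining one (26272662 to 26274101) lay between annotated starts, inside the long noncoding RNA gene LOC124900690. The other 2 start windows had no peak within 16086 bp in any list.

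MAML1 (chromosome 5, 179732822 to 179777283, plus strand) had 1 control anti-ETO, 3 knockdown anti-ETO, 2 control anti-Flag and 4 knockdown anti-Flag peaks. Its shared peak (179731447 to 179732563) stopped short of the gene. The promoter window itself had no overlap in any list, though the nearest peaks ended 9 to 36 bp before it. That peak also overlapped the body of CANX, a neighbouring gene. The knockdown-unique peak (179777881 to 179778340) lay 598 bp beyond the end of MAML1 and had no control call.

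Over the 9 genes with promoter windows, the window was overlapped at 5 in control anti-ETO, 6 in knockdown anti-ETO, 5 in control anti-Flag and 4 in knockdown anti-Flag. The shares of 15843 protein-coding genes were 32.5%, 38.7%, 32.3% and 23.8%. JAG1, NOTCH2, HES1 and RBPJ had an overlap in all 4 lists, a pattern found for 20.8% of protein-coding genes. NOTCH3, NOTCH4 and MAML1 had none. NOTCH1 lacked only knockdown anti-Flag, and JAG2 had only knockdown anti-ETO.

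Joining the peaks of the 4 lists that overlapped by at least 1 bp gave 69 regions at the 10 genes. Of these, 23 (33.3%) were in all 4 lists, against 24.8% of the 35622 regions of the series. Regions with both antibodies in knockdown but not in control numbered 11 (15.9%, series 13.2%), and those with both antibodies in control but not in knockdown numbered 0 (series 8.51%). A further 20 regions (29.0%, series 22.3%) were called by knockdown anti-Flag alone, and 9 (13.0%, series 10.2%) by control anti-Flag alone. Knockdown anti-ETO alone called 4 (5.8%, series 10.3%), and control anti-ETO alone called 0 (series 1.4%). The 23 regions in all 4 lists had a median width of 1628 bp (474 to 3026 bp), against 1056 bp for such regions in the series. The 33 regions in a single list had a median width of 281 bp (167 to 608 bp), against 280 bp.

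In the authors' deposited lists the 10 genes held 23 shared, 11 knockdown-unique and 0 control-unique peaks. Over the whole lists, 53.2% of such peaks were shared, 28.1% knockdown-unique and 18.6% control-unique. If the 34 peaks were independent, a count of 0 would allow a share of up to 8.82%, as far as counting error goes. Peaks of a gene are not independent, so this limit does not hold as it stands. The difference from the whole lists was not tested. Knockdown-unique peaks were found at 7 of the 10 genes (JAG2, NOTCH1, NOTCH2, NOTCH3, NOTCH4, HES1 and MAML1), against 18.4% of all protein-coding genes and 40.1% of those with a shared peak. A control-unique peak was found for 16.9% of all protein-coding genes, but 76.9% of the genes with a shared peak also had none. With the 4 lists at equal length, the regions with both antibodies in knockdown only fell from 11 to 4 (2 at JAG2, 1 at NOTCH3 and 1 at MAML1), and 1 region, just before MAML1, had both in control only.

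In the other condition, 6 of the 11 knockdown-unique peaks had a control anti-Flag call alone, 0 had a control anti-ETO call and 5 had neither. For all 4617 knockdown-unique peaks these shares were 55.1% with anti-Flag alone, 5.83% with anti-ETO alone, 0.996% with both and 38.1% with neither. The 11 peaks were narrow, with a median of 416 bp (251 to 1343 bp) against 517 bp for the whole list, and only those at JAG2 (639 bp) and NOTCH3 (1343 bp) exceeded the latter.

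**Figure D4:**
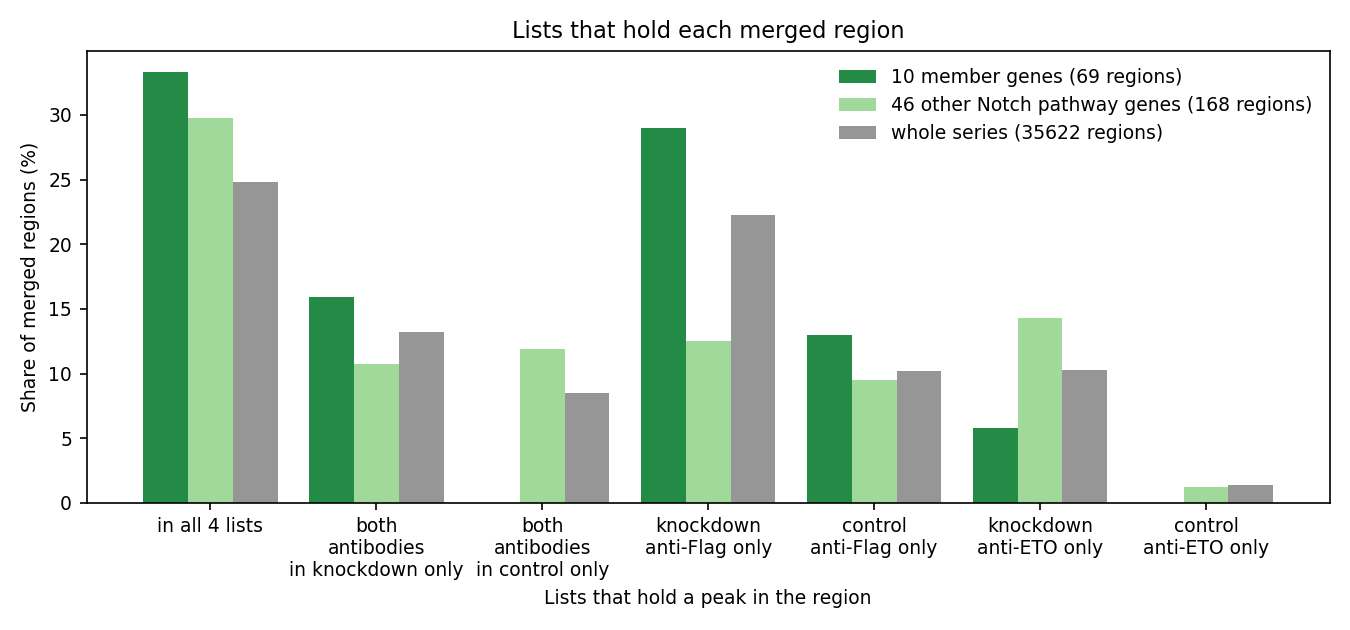
Share of merged regions in percent (vertical axis) by the lists that hold a peak in the region (horizontal axis), for the 10 genes (69 regions), 46 other Notch pathway genes (168 regions) and the whole series (35622 regions). The bar for both antibodies in control only is absent at the 10 genes, and stands at 11.9% for the other pathway genes and 8.51% for the series.

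A list of 47 other pathway genes was set beside them, and 46 were matched (CIR1 was not analysed here). Of the 46, 35 had a control anti-ETO peak, 38 a knockdown anti-ETO peak, 36 a control anti-Flag peak and 32 a knockdown anti-Flag peak, and 29 had a peak in all 4 lists. Peaks were in no list for 7 genes. Control-unique peaks were found at 16 of the 46 (34.8%) and knockdown-unique peaks at 10 (21.7%), with 18 peaks of each kind. Among all protein-coding genes these shares were 16.9% and 18.4%, and the differences were not tested. The 10 genes described above thus had the smaller share of control-unique peaks (0 of 34 against 18 of 86), a difference that was not tested.

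By role, the 4 other ligand genes, led by DLL3 with 3 regions, held no unique peak. Among 10 further targets, NRARP, which limits Notch signalling, had the most regions (10), with 1 control-unique and 1 knockdown-unique peak. HES7 had 2 control-unique and 1 knockdown-unique, HEY1 had 1 control-unique, HES2 had 1 and HES5 had 2 knockdown-unique peaks. Of the coactivators, MAML3 had 8 regions and 1 control-unique peak. Among the corepressor genes, TLE1 had 2 control-unique peaks and HDAC1 had 1, and SPEN, a partner of RBPJ in repression, had 1 knockdown-unique peak.

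Among 5 glycosyltransferase genes, whose products modify Notch receptors, RFNG had 16 regions and 3 knockdown-unique peaks. LFNG and MFNG had 1 control-unique peak each, and POFUT1 had 1 of each kind. Of 9 protease genes, 4 had a control-unique peak (ADAM10, APH1A, APH1B and FURIN, 1 each) and 0 had a knockdown-unique one. ADAM10 cuts the receptor at the cell surface, APH1A and APH1B belong to gamma-secretase, and FURIN, with the most regions of this group (7), processes the receptor precursor. Among 10 endocytosis and turnover genes, MIB1 and DTX4 had 1 control-unique peak each. MIB2, with 5 regions, and ITCH had 1 knockdown-unique peak each. Of the 18 control-unique peaks at these genes, 15 had a knockdown anti-ETO call alone, 2 a knockdown anti-Flag call alone and 1 neither. For all 3059 control-unique peaks these shares were 74.7%, 3.17% and 20.2%, and 1.99% had both.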

How the data were processed

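Peak lists in BED format were used as the authors deposited them: chromosome, start and end, with no score. Per the submitters' processing notes, fastp 0.19.5, Bowtie2 2.3.5, MACS2 2.2.5, HOMER 4.8 and the builds hg38 and sacCer3 were named, with no role or order. The threshold, the use of IgG and the handling of the 3 libraries per group are not given in the sources used here, and a looser threshold or deeper library could lengthen a list and add unique peaks. Starts were written counting from 1.

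The 4 single-antibody lists and the authors' 3 lists of peaks found with both antibodies were intersected with gene bodies extended by 10 kb (GRCh38.p14, overlap of at least 1 bp) in Python 3.11.15 with numpy 2.4.6 and pandas 2.3.3. Counting and joining were tested on simulated intervals, and 400 of 400 planted windows, 400 of 400 planted regions and 24 of 24 pairs split by a stricter overlap were recovered. Start sites and strands came from the RefSeq promoter table. Each group has 1 list, so no test over libraries was made. The members and gene lists were chosen with earlier results of these data known. Named other genes are those with a unique peak and, per role, the one with the most regions; a gene that this rule names is not reported here. Alternatives were other reaches, peak centres, stricter overlap, the wider 50% of each list and lists of equal length.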

Additional observations from a re-analysis of the deposited data

How the results depend on the processing

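Under the alternatives, 80 values stayed within 1.5 times the reported one and 37 did not. No paired analysis was possible because each group has 1 list that names no library, and libraries could not be left out in turn. Values below are given in the order control anti-ETO, knockdown anti-ETO, control anti-Flag, knockdown anti-Flag where 4 are listed. With gene bodies only, the 10 genes held 16, 27, 28 and 39 peaks, 15 shared peaks and 5 knockdown-unique peaks at 3 genes. With a reach of 50 kb they held 44, 77, 84 and 115 peaks, 39 shared, 19 knockdown-unique and 1 control-unique peak (at MAML1, 1 gene). In the wider 50% of each list, the knockdown anti-ETO, control anti-Flag and knockdown anti-Flag peaks fell to 24, 29 and 36, the genes with a shared peak to 6, and the knockdown-unique peaks to 2, at 2 genes. With lists of equal length, knockdown anti-Flag peaks numbered 39, all regions 43, and regions with both antibodies in control only, in knockdown only and in neither condition 1, 4 and 16. With an overlap of 50% of both peaks, regions in all 4 lists numbered 15, with both antibodies in control only 4 and in neither condition 60. For the other pathway genes, bodies alone gave 23 genes in control anti-ETO, 22 in control anti-Flag, 18 in knockdown anti-Flag, 10 control-unique and 3 knockdown-unique. The wider 50% gave 23 in control anti-ETO and 4 control-unique, and 50 kb gave 17 knockdown-unique. A shorter reach or shorter list holds fewer peaks by construction, and stricter overlap splits regions; other causes were not tested. The order of knockdown above control in peak number at the 10 genes held for both antibodies under every setting tried. Depth per peak is unknown, so weak calls near the threshold could not be told apart from absent ones.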

Other observations

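Splitting of peaks was compared in regions called in all 4 lists. At the 10 genes, knockdown anti-Flag had more peaks than control anti-Flag in 3 of 23 such regions, fewer in 5 and as many in 15. Over all 8835 such regions the knockdown had more anti-Flag peaks in 16.5% and fewer in 8.79%. For anti-ETO the knockdown had more peaks in 3 of the 23 regions and fewer in 1, against 7.29% and 7.92% in the series. The split of the anti-Flag call at the starts of JAG1 and NOTCH2 was thus not general at the 10 genes.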
